A study of Homo sapiens with 3 samples.

Results

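IRF1 and SOCS1 were 2 of the 13 promoters edited and read by CRISPR-Cap, and both act in the interferon pathway. Every listed capped RNA 5' end assigned to either gene was taken. These ends make up 976 of 131949 listed ends: 906 at IRF1, of which 875 carried a deletion, and 70 at SOCS1, of which 66 did. IRF1 ranked 10 and SOCS1 13 of the 13 targets by the number of ends, so the values for SOCS1 are coarse.

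The assay was done in HEK293T, an established human embryonic kidney cell line that carries the SV40 large T antigen. Cas9 protein bound to a guide RNA, with 1 guide per target, was transfected 2 times, which leaves a mixed population of cells with different deletions. An RNA oligo ending in 8 random bases was then joined to decapped 5' ends, and gene-specific reverse transcription read both the start of each RNA and the deletion downstream of it. Edited ends (with a deletion) and unedited ends (without) therefore came from the same transfected cells, and no untransfected cells were listed for this assay. No interferon treatment is named in the labels.

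Interferon-gamma acts through receptor-bound JAK kinases, and IRF1 is among the first genes that it switches on. IRF1 is itself a transcription factor that turns on antiviral and antigen presentation genes. SOCS1 is induced by the same pathway and closes a negative feedback loop: its protein binds JAK kinases and blocks their activity. RNA polymerase II commonly starts on a purine preceded by a pyrimidine, the core of the initiator element, and many promoters without a TATA box start at several nearby bases.

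All positions are on hg38, counted from 1, and both genes lie on the minus strand. At IRF1 (ENSG00000125347.13) the start with the most unedited ends, called the main start here, was 132490773 on chromosome 5. It coincided with the RefSeq start, 25 bases downstream of the GENCODE start of the gene at 132490798. Exon 1 runs from 132490545 to 132490798 and the start codon lies in a later exon, at 132489478, so deletions downstream of the start fell in the 5' UTR. At SOCS1 (ENSG00000185338.5) the main start was 11256200 on chromosome 16, the start of a GENCODE transcript, and the RefSeq start lay 4 bases upstream at 11256204. The SOCS1 start codon lies at 11255478, far downstream of the deletions.

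The 7 most frequent IRF1 deletions, which held 47.4% of the edited ends, are shown on the 30 bases at chr5:132490746-132490775 (minus strand, 5' to 3', GENCODE 29 transcript sequence and RefSeq promoter, GRCh38). Capitals mark the deleted bases. They are shown because start use differed between them.
IRF1 14-base deletion, 114 ends: gcagagctcgCCACTCCTTAGTCGaggcaa
IRF1 1-base deletion, 85 ends: gcagagctcgccactcCttagtcgaggcaa
IRF1 26-base deletion, 64 ends: GCAGAGCTCGCCACTCCTTAGTCGAGgcaa
IRF1 10-base deletion, 46 ends: gcagagctCGCCACTCCTtagtcgaggcaa
IRF1 20-base deletion, 43 ends: gcagagCTCGCCACTCCTTAGTCGAGgcaa
IRF1 15-base deletion, 32 ends: gcagagCTCGCCACTCCTTAGtcgaggcaa
IRF1 21-base deletion, 31 ends: gcagaGCTCGCCACTCCTTAGTCGAGgcaa

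The main IRF1 start is the third base of this window. Of these 7 deletions the 26-base deletion alone removed it. The 20-, 21- and 26-base deletions ended at the same downstream base, 132490750, and so joined different upstream sequence to the same downstream sequence.

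At SOCS1 the most frequent deletion (23 bases) and the third most frequent (4 bases) are shown on chr16:11256127-11256156 (minus strand, 5' to 3', same sources), again with the deleted bases in capitals. They began at the same upstream edge, 47 bases downstream of the main start.
SOCS1 23-base deletion, 14 ends: agcATGCGCGAGAGCCGCCCCGGAGCgccc
SOCS1 4-base deletion, 3 ends: agcATGCgcgagagccgccccggagcgccc

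Most edited ends of a target carried a deletion that touched or spanned 1 edge between bases, called the shared edge here. At IRF1 806 of 875 edited ends (92.1%, 95% Wilson interval 90.1 to 93.7, counting error only as for all intervals here) carried a deletion that touched or spanned the edge between 132490759 and 132490760, 14 bases downstream of the main start. That edge is 3 bases from a TGG on the plus strand at 132490763 to 132490765, the distance at which Cas9 cuts from its PAM. The guide sequence was not used here. At SOCS1 63 of 66 edited ends (95.5%, 87.5 to 98.4) carried a deletion touching the edge between 11256153 and 11256154, and the nearest plus strand PAM, CGG at 11256158 to 11256160, would place a cut 1 base from it.

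Bases were lost on both sides of the shared edge at IRF1 and mostly on its downstream side at SOCS1. With deletions placed as listed, an edited IRF1 end lost a mean of 6.79 bases downstream and 8.55 bases upstream of the shared edge. An edited SOCS1 end lost a mean of 21.8 bases downstream and 4.38 bases upstream. Where a deletion is flanked by a repeat it can be shifted without changing the edited sequence, and the list gives nearly all such deletions at their lowest coordinate. Placed at the highest coordinate instead, the means were 5.59 and 9.75 bases at IRF1 and 16.9 and 9.20 bases at SOCS1. The share of edited ends whose deletion touched or spanned the shared edge was then 89.3% at IRF1 and 84.8% at SOCS1. Ends that lost more bases downstream than upstream made up 75.8% at SOCS1 and 47.4% at IRF1 as listed, and 69.7% and 21.9% at the highest coordinate. At IRF1, 175 of 875 edited ends lacked the main start itself, whereas no SOCS1 deletion reached the main start.

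**Figure D1:**
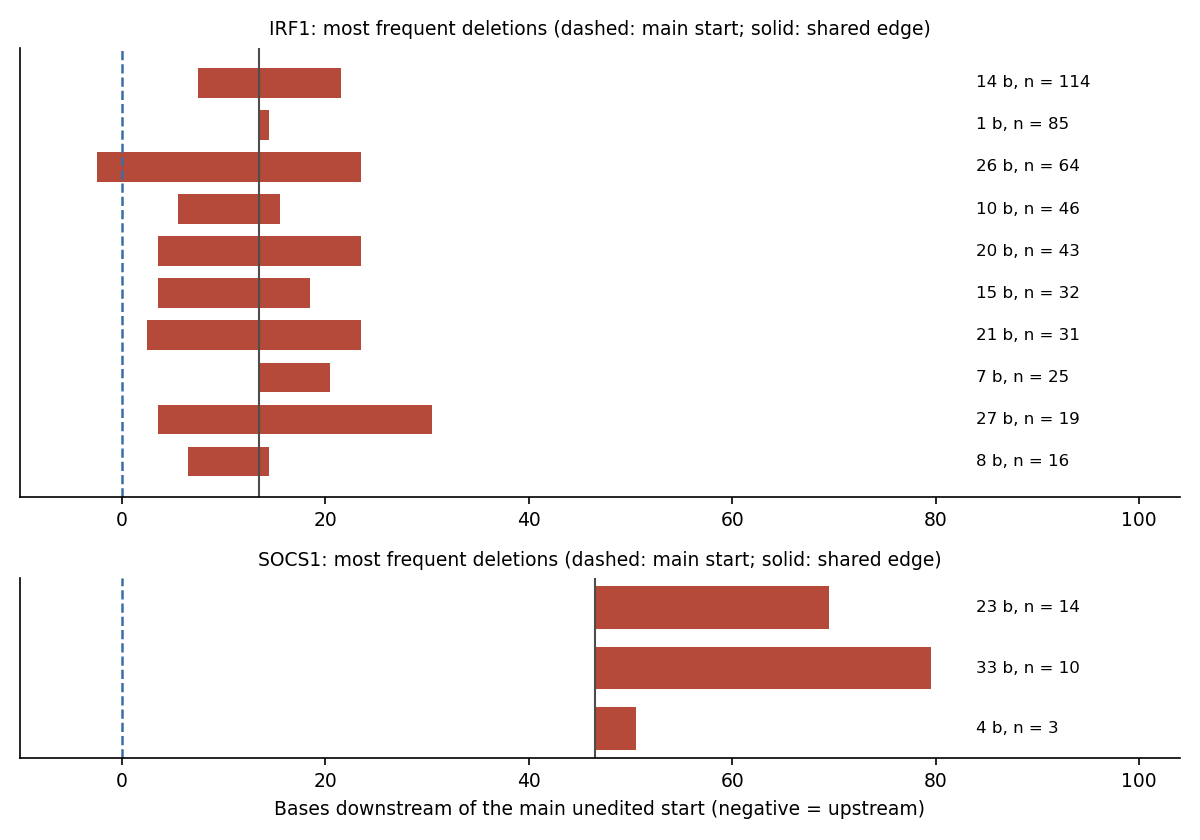
The 10 most frequent IRF1 deletions and the 3 SOCS1 deletions with 3 or more ends, drawn to scale as bars by their distance in bases downstream of the main unedited start (dashed line). Each bar is labelled with its length in bases (b) and its number of edited ends (n), and the solid line is the edge that most deletions touch. The IRF1 bars lie on both sides of the solid line and 1 of them, of 26 bases, covers the main start, while the 3 SOCS1 bars all begin at the line.

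Deletions were long at both promoters. The median deletion of an edited end was 14 bases at IRF1 and 23 bases at SOCS1, which ranked 4 and 1 of the 13 targets (2 to 18 bases at the other 11). Those of at least 10 bases accounted for 69.3% of IRF1 edited ends (66.1 to 72.2) and 83.3% of SOCS1 edited ends (72.6 to 90.4), a difference of 14.1 points (Newcombe 95% interval 2.91 to 21.8). Those of at least 30 bases accounted for 9.60% and 34.8%, a difference of 25.2 points (14.7 to 37.4). Loss of a single base accounted for 11.4% of IRF1 edited ends and 3.03% of SOCS1 edited ends.

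**Figure D2:**
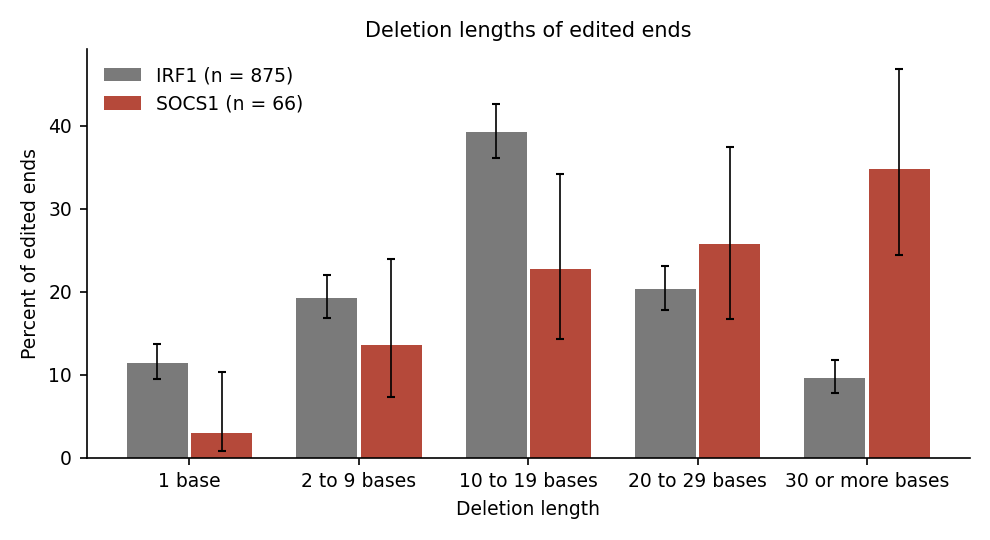
Percent of edited ends (vertical axis) by deletion length class (horizontal axis) at IRF1 (grey, 875 ends) and SOCS1 (red, 66 ends). Error bars are 95% Wilson intervals; the commonest class was 10 to 19 bases at IRF1 (39.3%) and 30 or more bases at SOCS1 (34.8%).

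IRF1 held 158 distinct deletions, of which 74 were seen on 1 end. SOCS1 held 36, of which 27 were seen on 1 end. The most frequent deletion took 13.03% of edited IRF1 ends (10.96 to 15.4) and 21.2% of edited SOCS1 ends (13.1 to 32.5). Among the other IRF1 deletions of the 10 most frequent, those of 7, 27 and 8 bases had 25, 19 and 16 ends, and the 10 together held 54.3% of edited ends.

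The 2 leading SOCS1 deletions ran in register from 1 copy of a repeat to another. The 10 bases GCCCCGGAGC stand just upstream of the shared edge, at 11256154 to 11256163. The same 10 bases occur again at 11256131 to 11256140 and at 11256121 to 11256130, 23 and 33 bases downstream. The most frequent deletion (14 ends) was 23 bases long and the next (10 ends) 33 bases long, so their lengths equal the distances between copies, and the position of each could be shifted by 10 bases without changing the edited sequence. Deletions that could be shifted by 3 or more bases, that is with a repeat of at least 3 bases at their edges, made up 62.1% of SOCS1 edited ends (50.1 to 72.9) and 20.2% of IRF1 edited ends (17.7 to 23.02). The intervals do not overlap, but most of each share rests on 2 deletions. At SOCS1 these are the 23- and 33-base deletions, with 14 and 10 ends. At IRF1 they are the 14- and 20-base deletions, with 114 and 43 ends.

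Unedited IRF1 RNA began at the main start in 15 of 31 ends, at 132490810 in 3, at 132490802 in 2, and at 11 further positions with 1 end each. Edited IRF1 RNA began over 51 positions. The 8 most used were 132490810 (37 bases upstream of the main start, 189 ends, 21.6%), 132490813 (89 ends, 10.2%), 132490800 (88 ends, 10.1%), 132490808 (77 ends, 8.80%), 132490806 (50 ends, 5.71%), 132490819 (48 ends, 5.49%), 132490818 (37 ends, 4.23%) and the main start (29 ends, 3.31%). Edited ends were thus spread over an upstream cluster, and 82.3% of them (720 ends) began upstream of the GENCODE start, as did 13 of 31 unedited ends.

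Spread over starts was wide at IRF1 and narrow at SOCS1. The effective number of edited starts (the inverse of the share of pairs of different ends that begin at the same base) was 11.4 at IRF1. This was second of the 13 targets after HSF1 at 20.4. The effective number was 2.04 at SOCS1, which ranked twelfth. SOCS1 had ends at 3 positions: 38 of 66 edited ends at 11256204, 27 at the main start 11256200 and 1 at 11256226. The 4 unedited SOCS1 ends were 3 at the main start and 1 at 11256204.

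**Figure D3:**
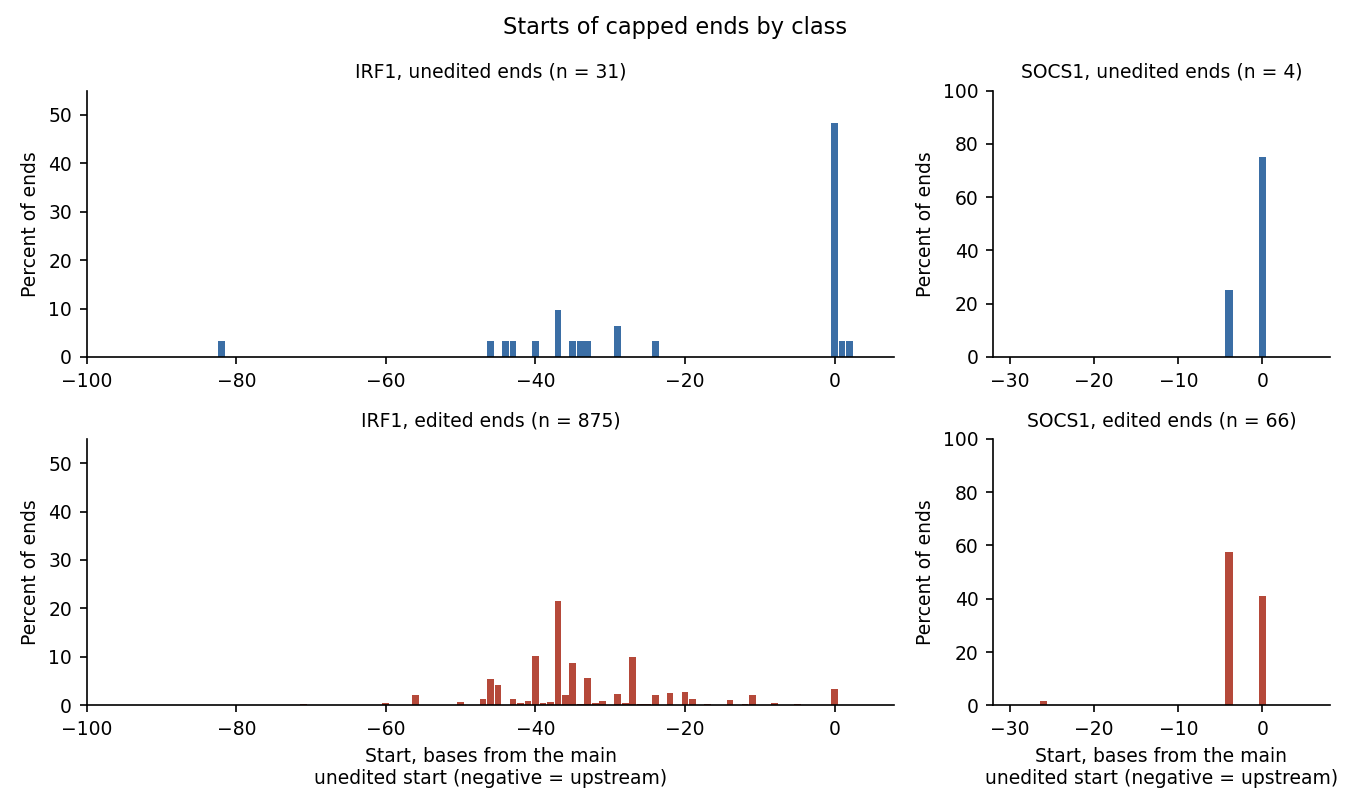
Percent of capped ends (vertical axis) at each start, given as bases from the main unedited start with negative values upstream (horizontal axis), for unedited ends (blue, top) and edited ends (red, bottom) at IRF1 (left) and SOCS1 (right). The tallest IRF1 bar is at 0 in the 31 unedited ends (48.4%) and at 37 bases upstream in the 875 edited ends (21.6%), while SOCS1 ends lie at 0 and 4 bases upstream in both classes, with 1 edited end 26 bases upstream.

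The IRF1 upstream cluster is shown on chr5:132490799-132490838 (minus strand, 5' to 3', RefSeq promoter sequence, GRCh38), because it holds the 7 most used upstream starts, which are in capitals.
IRF1 upstream starts: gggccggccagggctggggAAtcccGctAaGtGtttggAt

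From 5' to 3' the capitals are the bases 132490819, 132490818, 132490813, 132490810, 132490808, 132490806 and 132490800. All are purines. The leading start 132490810 is an A after a T, 132490813 and 132490806 are a G after a pyrimidine, and the other 4 follow a purine. The listed positions were raised by 1 partly because that put ends on a purine after a pyrimidine, so the shares that follow describe the positions as set and are no test against the window. Such a pair was found at 55.4% of edited IRF1 ends (52.1 to 58.7) and at 24.7% of the bases in the window of starts. Leaving out the main start, which is such a base, the share was 53.9% of 846 edited ends (50.5 to 57.2) and 9 of 16 unedited ends. At SOCS1, 65 of 66 edited ends and 4 of 4 unedited ends began on a purine after a pyrimidine, as did 25.9% of window bases.

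SOCS1 starts are shown with their upstream bases on chr16:11256201-11256244 (minus strand, 5' to 3', RefSeq promoter sequence, GRCh38), because the sequence holds an AT-rich run at the distance where a TATA box usually stands. Capitals mark TTTAAA at 11256228 to 11256233, 28 to 33 bases upstream of the main start, and the start 11256204.
SOCS1 start region: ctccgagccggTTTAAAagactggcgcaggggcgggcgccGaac

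TTTAAA was searched for after the sequence had been seen, and 12.2% of 35116 RefSeq promoters of the same length (250 bases before to 50 after the start, both strands) hold it. TATAA itself is in neither promoter and in 20.4% of all. The IRF-type motif GAAANNGAA occurs once at SOCS1, at 11256309 to 11256317, and in 8.11% of promoters. This match begins 109 bases upstream of the main start and was overlapped by no deletion, so the edits left it in place.

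GGGCGG, the GC box, occurs 5 times at IRF1 and 3 times at SOCS1 (in 44.95% of promoters), and CCAAT occurs 2 times at IRF1 (34.6%). At IRF1, 1 edited end had a deletion overlapping a GC box. GGTGAG and GGTAAG (splice donor type), ATGGCG (YY1 type) and CCGGAAG (ETS type) are in neither window, and 20.6%, 8.02%, 10.7% and 10.3% of promoters hold them. Each motif was searched on both strands and a match is a description of the sequence only.

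Edited ends were grouped by how many bases the deletion left from the main IRF1 start onward, counting the start base, and the main start was used mostly where 13 or more were left. The 175 edited ends whose deletion removed the main start could not begin there. Among 285 ends whose deletion left 1 to 7 bases, 0 used it (a count of 0 allows up to 1.05%). With 8 to 12 bases left, 1 of 205 ends used it (0.488%). With 13 or more left, 28 of 210 did (13.3%, 9.39 to 18.6), 12.8 points above the group with 8 to 12 (8.32 to 18.1) and 35.05 points below unedited ends (17.8 to 52.3). The main start was picked as the most used start of these same 31 unedited ends. Its unedited share may therefore be too high, and the interval does not allow for this choice. Over all IRF1 starts, the closest end to its deletion kept 9 bases, and 0 of 875 kept fewer than 8 (up to 0.343%). With deletions placed at the highest coordinate, the shares with 1 to 7, 8 to 12 and 13 or more bases left were 0.239%, 0.926% and 16.2%. The fewest bases kept by any end differed between targets, for example 1 at LETMD1 and RBM4 and 15 at TXNRD2. Whether shorter stretches could be aligned at IRF1 was not tested. In the groups with few bases left, loss of starts and loss of readable ends therefore cannot be told apart.

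Use of the main start also differed among deletions listed as leaving the same 14 bases. The 1-base deletion of 132490759 had 21 of 85 ends at the main start (24.7%, 16.8 to 34.8). The 10 longer deletions with the same upstream edge had 0 of 52 (up to 6.88% by the Wilson interval), a difference of 24.7 points (14.2 to 34.8). These 52 ends include the 7-base deletion with 0 of 25 and deletions of 2 to 6 bases with 0 of 19. The comparison was chosen after its values were seen, and it rests on the listed placement: at the highest coordinate the 1-base deletion left 13 bases and shared that edge with 5 longer-deletion ends, 0 of them at the main start (difference -19.5 to 34.8 points).

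The 29 edited ends at the main start came from 6 deletions. The 1-base deletion of 132490757 gave 3 of its 13 ends, a 6-base deletion at 132490753 to 132490758 gave 2 of 8, and the other 3 deletions gave 1 each. Among deletions leaving 13 or more bases, 24 of 98 ends on 1-base deletions used it (24.5%, 17.05 to 33.9), 4 of 94 on deletions of 2 to 9 bases (4.26%, 1.67 to 10.4) and 0 of 18 on longer ones. The main start was the most used start on the 1-base deletion of 132490759, and the other 9 of the 10 most frequent deletions had no end there. Of those 9, the 7-base deletion alone left more than 8 bases from the main start onward.

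**Figure D4:**
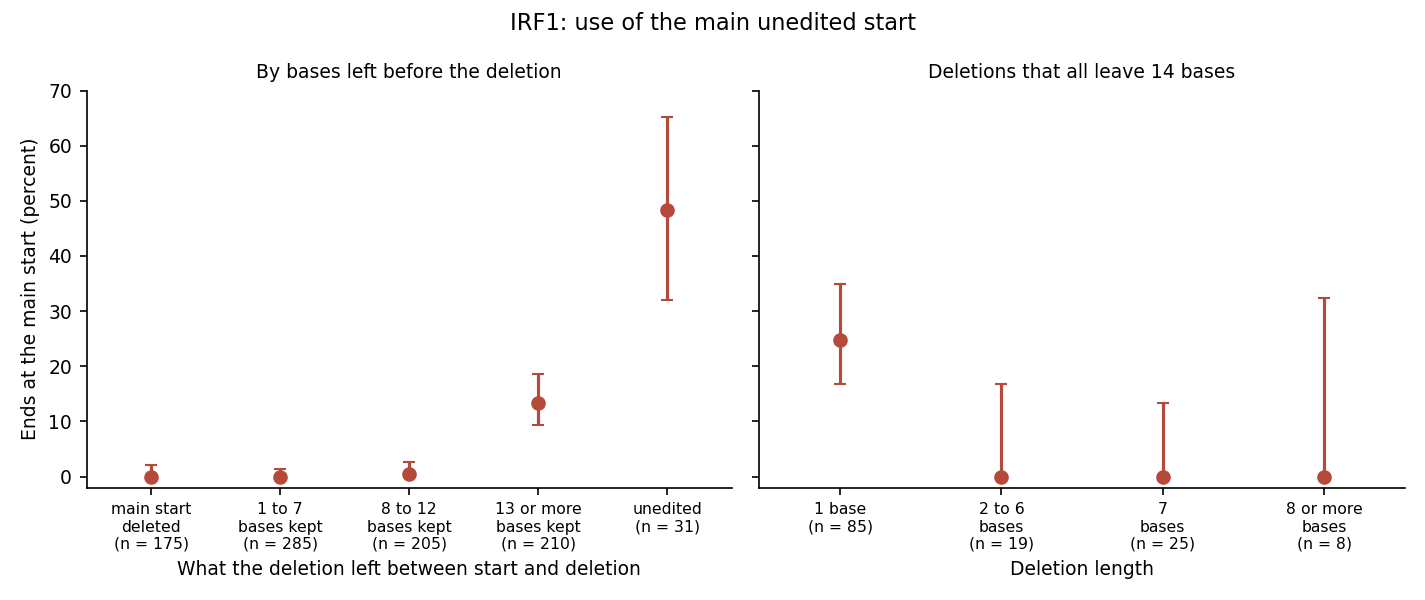
Percent of IRF1 ends at the main unedited start (vertical axis, points with 95% Wilson intervals). Left, by what the deletion left between the start and the deletion, with unedited ends last; right, deletions that all leave 14 bases, by deletion length. The share is 13.3% with 13 or more bases left against 48.4% unedited, and at 14 bases left it is 24.7% for the 1-base deletion and 0 for the longer classes. Ends whose deletion removed the main start could not begin there. The main start was chosen as the most used start of the unedited ends shown, which can raise their share.

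Most edited IRF1 ends lay 20 or more bases upstream of the main start. Starts 20 or more bases upstream took 98.9% of ends where the main start was deleted and so could not be used. They took 91.9% with 1 to 7 bases left, 87.8% with 8 to 12, 82.9% with 13 or more, and 45.2% of unedited ends (29.2 to 62.2). Within that upstream cluster, starts 20 to 29 bases upstream took 32.3% of 257 ends on deletions of 20 or more bases (26.9 to 38.2) and 12.2% of 229 ends on deletions under 10 bases (8.60 to 17.1), a difference of 20.07 points (12.8 to 27.03). Without the 26-base and 20-base deletions the first share was 20.8% and the difference 8.55 points (1.08 to 16.5).

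The leading start 132490810 took 26.02% of ends on deletions under 10 bases, 21.2% on those of 10 to 19 bases and 17.6% on those of 20 or more, with overlapping intervals between neighbours. The shares at 132490800 were 7.43%, 9.88% and 12.98%, and at 132490808 were 5.95%, 8.43% and 12.2%. Their intervals overlap between neighbouring classes as well. The rise at 132490800 rests on 1 deletion: of the 34 ends there on deletions of 20 or more bases, 26 came from the 26-base deletion. At 132490806 the shares stayed between 5.52% and 5.95%. Overlap of separate intervals does not show equal shares, and no interval was taken for differences between these length classes.

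The mean start was also compared between long and short deletions. Edited ends began a mean of 33.7 bases upstream of the main start on deletions of 10 or more bases (SD 9.96 over 606 ends) and 33.1 bases on shorter deletions (SD 14.9 over 269 ends). The difference was 0.561 bases (-1.38 to 2.51). Compared only over positions at least 8 bases upstream of each long deletion, the difference was -2.75 bases (-4.69 to -0.801, with the standard error of the unmatched difference), that is, ends on long deletions began nearer the main start. It was -4.02 bases with at least 12 bases kept and -4.14 bases with at least 20. It was smaller, -1.60 bases, with the split at 20 bases, and -2.41 bases with deletions of 5 or more ends weighted equally. At SOCS1 the difference was -0.691 bases (-2.07 to 0.693) over 55 and 11 ends.

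Start use differed between some IRF1 deletions. The overall leading start 132490810 also led on the 14-, 10- and 15-base deletions, while the other 4 of the 7 led elsewhere. In the 56 comparisons of the 7 most frequent deletions with all other edited ends at the 8 named starts, 5 unadjusted Newcombe intervals did not include 0. The 26-base deletion had 26 of 64 ends at 132490800 (40.6%, 29.5 to 52.9) against 7.64% of the rest, a difference of 32.98 points (21.6 to 45.3). The 1-base deletion was above the rest at the main start and below it at 132490810 (12.9% against 22.5%). The 20-base deletion was below the rest at 132490810 (9.30%, a difference of -12.9 points, -19.3 to -0.341), and the 14-base deletion was below it at the main start, with no end there.

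**Figure D5:**
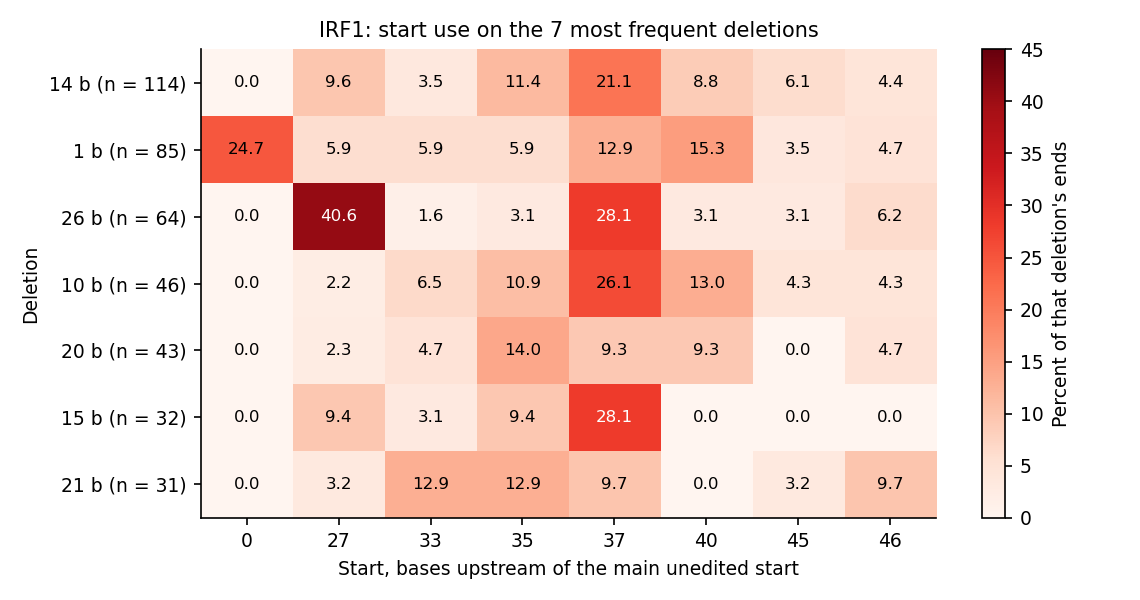
Percent of each deletion's ends (colour and number) at the 8 most used edited IRF1 starts (columns, bases upstream of the main unedited start) for the 7 most frequent deletions (rows, length in bases b and number of ends n). The 26-base deletion stands out at 27 bases upstream with 40.6%, and the 1-base deletion is the only row with ends at 0, with 24.7%.

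Some of these leading starts lay 24 or 25 bases from the new junction. The start 132490800 keeps 25 bases before the 26-base deletion. The 20-base deletion had its leading start at 132490793, with 12 of 43 ends (27.9%) and 24 bases kept. The 21-base deletion led narrowly at 132490795 with 5 of 31 ends (25 bases kept), against 4 each at 132490808 and 132490806. A 40-base deletion at 132490750 to 132490789 led at 132490813 with 7 of 15 ends (24 bases kept). These deletions share the downstream edge 132490750 as listed (the 20-base deletion can be shifted by 3 bases, and the 26- and 40-base deletions by 1), and their leading starts are 4 different genomic bases.

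Over all 16 deletions with that downstream edge, 57 of 194 ends kept 24 or 25 bases (29.4%, 23.4 to 36.1). Over the other 142 deletions 14 of 681 ends did (2.06%, 1.23 to 3.42), a difference of 27.3 points (21.2 to 34.1). Of the 57 ends, 26 came from the 26-base deletion, 12 from the 20-base, 7 from the 40-base and 5 from the 21-base deletion. The comparison thus largely repeats the leading starts named above and is no separate support for them. Deletions with the same upstream edge as the 20-base deletion but another downstream edge had 1 of 56 ends at 132490793 (1.79%, 0.316 to 9.45). Deletions of 20 or more bases that reached the main start and left at least 8 bases at 132490800, other than the 26-base deletion, had 1 of 86 ends at 132490800 (1.16%, 0.206 to 6.30). Most of these 86 ends lay on deletions that left fewer than 25 bases there, and some shared the downstream edge 132490750. A shorter deletion of 19 bases, 132490757 to 132490775, also keeps 25 bases there and had 2 of 2 ends at 132490800. The 18- and 17-base deletions with the same upstream edge, 2 ends each, had no end there.

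This pattern was noticed in these data. The intervals treat each listed end as independent, and whether repeated ends at a position are copies of the same RNA molecule was not tested. Ends that kept 24 or 25 bases made up 8.11% of all edited IRF1 ends, against 3.31% for 22 or 23 and 1.94% for 26 or 27. Some other targets had a like peak: the 3 shares, in the order 22 or 23, 24 or 25, and 26 or 27, were 2.70%, 13.1% and 1.80% at EDEM2. They were 1.57%, 5.99% and 2.20% at C1orf63, and 2.49%, 5.25% and 2.93% at NDUFV3. SOCS1 had 1 end at 24 or 25. At all remaining targets the share at 24 or 25 was no higher than that at 22 or 23. The 3 shares were, for example, 12.9%, 7.47% and 2.22% at RBM4 and 4.34%, 1.61% and 2.22% at LETMD1.

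At SOCS1 the choice was between starts 4 bases apart. The upstream start 11256204 took 38 of 66 edited ends (57.6%, 45.6 to 68.8) and 1 of 4 unedited ends, a difference of 32.6 points whose interval runs from -13.9 to 55.9 and so includes 0. It took 9 of 11 ends on deletions under 10 bases, 15 of 32 on those of 10 to 29 bases and 14 of 23 on those of 30 or more. In these classes the shares were in no order of deletion length, and the difference between the last 2 classes was 13.99 points (-12.1 to 37.3). The order depends on the classes: the start took 53.3% of ends on deletions of 10 to 19 bases and 52.5% on those of 20 or more. No interval was taken for the 11 ends under 10 bases against the longer classes.

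Placed as listed, 27 deletions began upstream of the shared edge. The start 11256204 took 23 of 32 ends on these (71.9%, 54.6 to 84.4) and 15 of 34 ends on the 9 deletions that ended at it (44.1%, 28.9 to 60.5), a difference of 27.8 points (3.94 to 47.5). This split does not hold apart from the placement: at the highest coordinate 1 end alone stays at the shared edge, since the 23- and 33-base deletions, 24 of the 34 ends, can be shifted by 10 bases. The 23-base deletion had 6 ends at 11256204 and 8 at the main start, the 33-base deletion 3 and 7, and the 4-base deletion 3 and 0. The 33-base deletion was above all other edited ends at the main start (70% against 35.7%, a difference of 34.3 points, 1.26 to 56.6), the only 1 of 6 such SOCS1 intervals without 0. Deletions seen on 1 end used 11256204 in 18 of 27 ends and the 2 with 5 or more ends in 9 of 24, a difference of 29.2 points (1.84 to 51.1). These splits overlap, since the 2 repeated deletions both end at the shared edge, and both were made after the values were seen. Every SOCS1 start kept at least 20 bases before its deletion, and 81.8% of edited ends kept 40 or more, against 53.9% at IRF1.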

How the data were processed

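CRISPR-Cap libraries (2) were made from HEK293T cells. The submitters' processing notes name STAR and hg38; their versions were not given in the sources used here. Whether the random bases were used to merge copies before listing was likewise not given. The deposited list gives each capped end with its target, class (WT or MUT), position and deletion edges and pools both libraries, so no library error or test between libraries could be had, including the values per library that had been planned. A STAP-seq library was not used. Listed positions were raised by 1 (counted from 0 as listed), which put 56.2% of IRF1 ends and 98.6% of SOCS1 ends on a purine after a pyrimidine (3.20% and 0% otherwise).

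Intervals are 95% Wilson intervals for shares and Newcombe intervals for differences of shares (statsmodels 0.14.6, Python 3.11.15). Intervals for differences of mean starts are 95% normal intervals from the standard error. All these intervals cover counting error only. What a count of 0 allows is 3 ends over the group size, except where the Wilson interval is named. Sequences came from GENCODE 29 and RefSeq (GRCh38.p14), which overlap by 75 bases at IRF1 and 46 at SOCS1 with 0 differences. Named were the 10 most frequent deletions (ties at the tenth place left out), the 8 most used edited and 5 most used unedited starts of each target (tied unedited starts as a count), and deletions compared one by one had at least 30 ends at IRF1 and 5 at SOCS1. Members, lists and motifs were chosen with earlier results of these data known. The result of 1 motif search is not reported here. The matched mean start was tested on simulated data. Alternatives changed the kept bases, length thresholds, weights and the most frequent deletion.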

Additional observations from a re-analysis of the deposited data

How the results depend on the processing

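Of 36 alternative values for the 12 shares and mean differences, 27 stayed within the 95% interval of the reported value and 9 moved out of it. Shares cannot change sign, and no alternative for a mean difference did. The unmatched IRF1 mean difference, not among these alternatives, was 0.561 bases, of the opposite sign to the matched -2.75. At IRF1 the most used edited start took 25.4% with each deletion of 5 or more ends weighted equally. The main unedited start took 6.99% of edited ends where at least 8 bases were kept, 3.31% with no minimum and 12.6% with 12 or more kept. It took 10.2% with deletions at their highest equivalent coordinate, an alternative chosen after seeing the data. Deletions of 20 or more bases made up 29.9% and of 5 or more 83.2%, and those of 10 or more 64.7% without the most frequent deletion. At SOCS1, equal weights gave 36.4% for the most used edited start, and deletions of 20 or more bases made up 60.6%; the equal weights rest on 2 deletions there. No IRF1 deletion left 20 bases at the main start, and no SOCS1 deletion under 10 bases had 5 ends, so these 2 values could not be computed. Thresholds that count more or fewer deletions move a share by construction; for the other values the cause was not tested. No paired analysis was possible because the list pools the 2 libraries, and leaving out each library was not run for the same reason. Depth limits SOCS1 most: with 4 unedited ends no difference from edited ends was detected.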
